A study of Mus musculus with 6 samples.

Results

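The 9 genes described here encode the insulin and insulin-like growth factor (IGF) receptors, the proteins that carry their signal inward, and the FOXO transcription factors with a ubiquitin ligase under their control: Insr, Igf1r, Irs1, Irs2, Pik3r1, Foxo1, Foxo3, Foxo4 and Fbxo32. They were taken as a list of names from 22180 genes on the arrays, and all 9 were measured. RNA came from cumulus-oocyte complexes (COCs), which are oocytes held in meiotic arrest together with the somatic cumulus cells around them. There were 3 arrays of COCs cultured with Torin1, an inhibitor of the kinase MTOR in both of its complexes, and 3 arrays of COCs cultured with the vehicle DMSO. The complexes of both groups came from wildtype female mice given 5 IU of equine chorionic gonadotropin 46 h before collection, with 100 COCs a group cultured in 5 µM of Torin1 or DMSO (the labels give the vehicle this concentration too). The medium of both groups held bovine serum albumin at 3 mg/ml, and 5 µM milrinone to block the oocyte phosphodiesterase and so meiosis. The labels put the age of the mice at 21 or 23 days and the culture at 14 or 16 h, and they do not settle which. Each group held pooled complexes, and nothing in the labels says whether the 3 sets came from separate mice or days, so p-values cover no more than sample-to-sample spread, possibly of technical origin.

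Insulin and IGF receptors are tyrosine kinases that phosphorylate the adaptors IRS1 and IRS2, which recruit phosphoinositide 3-kinase through its regulatory subunit, the product of Pik3r1. The kinase AKT is then activated and phosphorylates FOXO factors, which leave the nucleus, while kinases downstream of MTOR phosphorylate IRS1 and restrain the pathway. In the ovary, IGF signalling acts with follicle-stimulating hormone in granulosa cells, FOXO1 is prominent in granulosa cells of growing mouse follicles, and FOXO3 in the oocyte keeps primordial follicles dormant. In skeletal muscle, where the network is best known, FOXO factors raise Fbxo32, and in liver they raise Irs2.

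Irs1 and Irs2 stood on opposite sides of their DMSO values in the same Torin1 samples, and Foxo1 was the FOXO gene that fell, so the sequences just upstream of the annotated starts of these 3 genes are shown. They come from RefSeq (build GRCm38.p6), where 6 of the 9 genes had an entry, and each holds the 250 bases before the start, 5′ to 3′ on the gene's own strand. Capitals mark the E-box CACGTG, a site read by basic helix-loop-helix factors. Irs1 lies on the minus strand with its window at chr1:82291440-82291689, Irs2 on the minus strand at chr8:11008930-11009179, and Foxo1 on the plus strand at chr3:52268087-52268336.
Irs1: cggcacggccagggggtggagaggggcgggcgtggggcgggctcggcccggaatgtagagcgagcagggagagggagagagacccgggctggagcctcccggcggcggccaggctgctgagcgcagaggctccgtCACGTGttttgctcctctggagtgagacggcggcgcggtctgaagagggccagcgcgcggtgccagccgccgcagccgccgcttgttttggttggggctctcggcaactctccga
Irs2: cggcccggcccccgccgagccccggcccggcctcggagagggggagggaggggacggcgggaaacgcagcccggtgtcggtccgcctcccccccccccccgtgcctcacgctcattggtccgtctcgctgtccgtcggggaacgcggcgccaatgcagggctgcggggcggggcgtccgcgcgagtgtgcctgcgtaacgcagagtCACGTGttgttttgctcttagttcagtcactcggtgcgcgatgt
Foxo1: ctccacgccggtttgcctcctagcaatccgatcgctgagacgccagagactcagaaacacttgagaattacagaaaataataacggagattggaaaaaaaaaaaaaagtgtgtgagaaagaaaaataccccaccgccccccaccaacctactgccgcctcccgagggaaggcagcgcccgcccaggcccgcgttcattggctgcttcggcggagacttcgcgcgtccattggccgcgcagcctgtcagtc

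The Irs1 and Irs2 windows each held 1 E-box, which began 115 bases before the start in Irs1 and 44 bases before it in Irs2, and the Foxo1 window held none. Among 32851 RefSeq promoter windows of this length, 6.02% held CACGTG. The forkhead core GTAAACA (reverse strand TGTTTAC) and the cAMP response element TGACGTCA were also searched, on both strands; no motif found overlapped another. Neither was found in the windows of Irs1, Irs2, Foxo1, Foxo3, Igf1r or Pik3r1 (which has 2 annotated starts), against 3.17% of all windows with the forkhead core and 1.55% with the cAMP response element. A match describes letters in a window and no binding was measured.

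Array signals were the authors' intensities, set here on the scale log2(intensity + 1), where the median gene lay at 4.17. A gene was called when limma's moderated test, adjusted over all 22180 genes by Benjamini-Hochberg, gave an adjusted p below 0.05, and changes are Torin1 minus DMSO with a standard error (SE). Of the 9 genes, Fbxo32 rose, Irs1 and Foxo1 fell, and 6 were not called. That is 3 of 9, against 12.1% of all genes (5.13% higher and 6.94% lower). The values of the groups did not overlap for 5 of the 9 (Irs1, Irs2, Foxo1, Foxo3 and Fbxo32), against 28.6% of all genes. All 9 were brighter than the median gene, with mean levels at percentiles 72 (Foxo4) to 98 (Pik3r1). With genes below the median gene left out, 2740 genes were called, so the called share among brighter genes is above 12.1%. The called share of all genes is therefore a low mark for these 9. The share without overlap among brighter genes is not given here. Since the 9 were chosen with results of these data known, their share is given as a description. Their median change was 0.06, and that of all genes 0.01.

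The libraries were alike in scale, with array medians of 11.1 to 11.97 intensity units. Torin1 sample 3 stood apart from Torin1 samples 1 and 2, with an SD of log2 differences over genes of 0.327 and 0.350, against 0.204 between samples 1 and 2 and 0.212 to 0.240 among DMSO samples. Oocyte markers were abundant as the label requires: their summed intensity was 8104 to 8998 in Torin1 and 7306 to 7757 in DMSO samples. Of the 16, 2 were called higher, and all 16 changes were above 0 (median change 0.21). Cumulus and granulosa markers summed to 4197 to 4552 in Torin1 and 7239 to 7413 in DMSO samples, and 11 of 15 fell (median change -1.22). The called changes ran from -4.00 (Amhr2) to -0.38 (Gja1). Amhr2 averaged 4.04 in Torin1 samples, below the median gene, which leaves the fold of its fall uncertain. Wt1 (-0.27), Gata4 (-0.03), Nr5a1 (0.004) and Fst (0.16) were not called. In whole complexes, fewer cells of a type and less RNA per cell, of all genes or of single markers, cannot be told apart. Theca markers summed to 144 to 211 in Torin1 and 415 to 463 in DMSO samples, while the median change of the 6 measured was -0.06. Acta2, a smooth muscle actin and the brightest of the 6 in DMSO samples, was lower by 2.87 ± 0.12 (SE, limma, adjusted p = 5.3e-05), and Star was higher. The theca-defining Cyp17a1 averaged 2.87 in Torin1 and 2.82 in DMSO samples, below the median gene. Of 8 immune markers only Cd68 was called, higher by 0.54, and Ptprc, which marks all leukocytes, was at 3.07 in Torin1 and 3.04 in DMSO samples. Immune markers summed to 88.4 to 93.7 in Torin1 and 78.5 to 85.0 in DMSO samples, and endothelial markers to 159 to 277 in Torin1 and 114 to 118 in DMSO samples. Of the 7 endothelial markers only Cdh5 was called, higher by 2.33. It averaged 4.10 in DMSO samples, below the median gene, so the fold of its rise is uncertain too. No erythroid marker was measured.

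The receptors came first in order of signalling, and neither was called. Insr, the insulin receptor, had values of 6.81, 7.07 and 7.15 in Torin1 samples 1, 2 and 3, and of 6.80, 6.53 and 6.81 in DMSO samples 1, 2 and 3. Torin1 sample 1 lay below DMSO sample 3, so the groups overlapped. The change was 0.30 ± 0.12 (SE; 95% interval 0.0050 to 0.59; limma, adjusted p = 0.200). Igf1r, the IGF receptor through which IGF acts on granulosa cells, had values of 8.11, 8.20 and 8.20 in Torin1 and of 8.20, 8.14 and 8.23 in DMSO samples and the groups overlapped. Its change of -0.02 ± 0.07 had a 95% interval of -0.19 to 0.14, so a change beyond 0.19 in size lay outside it (adjusted p = 0.917 in limma). The sign of this change turned, to 0.0041, without Torin1 sample 1.

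Irs1, an adaptor that docks phosphoinositide 3-kinase to either receptor, fell in all Torin1 samples. It had values of 5.28, 5.63 and 5.30 in Torin1 samples, against 6.60, 6.77 and 7.10 in DMSO samples. Every Torin1 value lay nearly 1 unit or more under the lowest DMSO value. In linear units these were intensities of 38.0, 48.6 and 38.5 in Torin1 and 96.3, 108 and 136 in DMSO samples. The change was -1.42 ± 0.15 (SE; 95% interval -1.78 to -1.06; limma, adjusted p = 0.00175), or 2.67-fold lower. It was called without any 1 of the 6 arrays, with changes of -1.53 to -1.28.

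Irs2, the related adaptor, had higher values in Torin1 samples but was not called. It had 8.05, 7.84 and 8.77 in Torin1 samples 1, 2 and 3, against 7.53, 7.49 and 7.27 in DMSO samples. All Torin1 values lay above all DMSO values, and Torin1 sample 3 was the highest. The change was 0.79 ± 0.23 (SE; 95% interval 0.25 to 1.33; limma, adjusted p = 0.0741). It passed the threshold without Torin1 sample 2 (0.98, adjusted p = 0.0443) and without Torin1 sample 3 (0.51, adjusted p = 0.0300). With Torin1 samples 2 and 3 averaged as 1 sample, because the labels give them the same short name, the adjusted p was 0.00911. Averaging joined the lowest and highest Torin1 values and took out the spread between them, so this smaller p is not added evidence.

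On the same array, the log2 difference Irs2 minus Irs1 was 2.77, 2.20 and 3.46 in Torin1 samples, against 0.92, 0.72 and 0.17 in DMSO samples. The lowest Torin1 difference exceeded the highest DMSO difference. The mean difference was higher by 2.21 with Torin1, a 4.61-fold shift of the ratio of signals, and an exact two-sided permutation test of 3 against 3 samples gave p = 0.1, the smallest that this design allows (adjusted over 3 such pairs, 0.1). Because the signals come from different probes, only the shift between groups has a meaning; this test cannot pass a threshold of 0.05, and the shift is given as a description. The Insr minus Igf1r difference shifted by 0.32, with -1.30, -1.13 and -1.04 in Torin1 and -1.40, -1.62 and -1.42 in DMSO samples (exact permutation p = 0.1).

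Pik3r1, the regulatory subunit that binds phosphorylated IRS proteins, had 8.86, 8.99 and 8.69 in Torin1 and 8.86, 8.72 and 8.79 in DMSO samples. The groups overlapped, and the change was 0.06 ± 0.10 (SE; 95% interval -0.17 to 0.28; limma, adjusted p = 0.834). It was -0.01 without Torin1 sample 2.

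**Figure D1:**
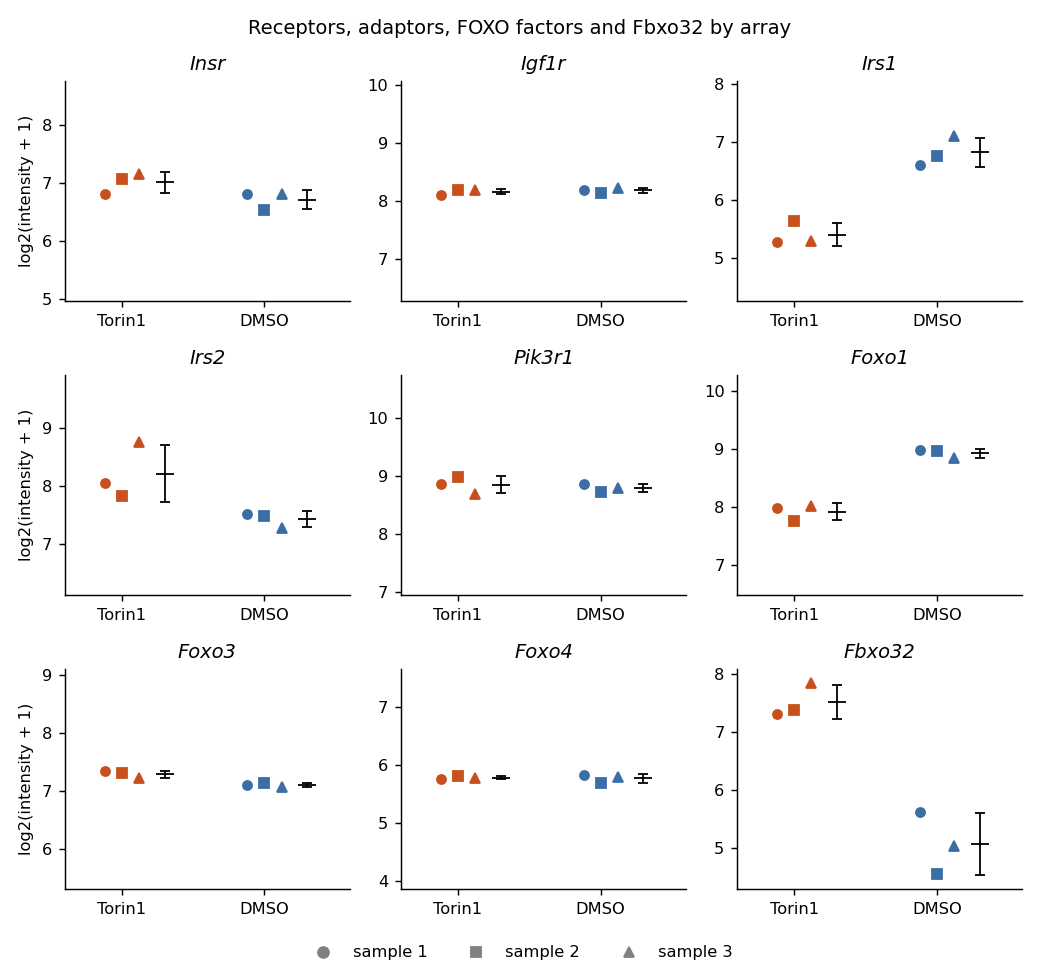
Values of the 9 genes on each array as log2(intensity + 1), with Torin1 samples left of DMSO samples; symbols mark the sample number and the bar beside them is the mean with its SD (n = 3). All panels span the same number of log2 units, and the groups lie clear of each other for Irs1, Irs2, Foxo1, Foxo3 and Fbxo32.

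Among the FOXO factors, which turn on genes of metabolism, arrest and atrophy when AKT is inactive, Foxo1 fell with Torin1. It had 7.99, 7.75 and 8.02 in Torin1 samples, against 8.98, 8.97 and 8.84 in DMSO samples. The replicates were close, and the groups were separated by more than the range of either. Intensities were 253, 214 and 258 in Torin1 and 503, 499 and 457 in DMSO samples. The change was -1.01 ± 0.10 (SE; 95% interval -1.24 to -0.78; limma, adjusted p = 0.00109), or 2.01-fold lower, and it was called without any 1 array (-1.06 to -0.93).

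Foxo3, the FOXO factor known for its role in oocytes, had 7.33, 7.31 and 7.22 in Torin1 samples and 7.10, 7.13 and 7.06 in DMSO samples. The groups did not overlap, but the change of 0.19 ± 0.07 was not called (95% interval 0.020 to 0.36; limma, adjusted p = 0.160). Foxo4 had 5.76, 5.80 and 5.78 in Torin1 and 5.82, 5.68 and 5.80 in DMSO samples, which overlapped. Its change was 0.01 ± 0.07 (95% interval -0.16 to 0.19; adjusted p = 0.953 in limma) and turned to -0.03 without DMSO sample 2. On the same array, Foxo1 minus Foxo3 was 0.66, 0.44 and 0.80 in Torin1 samples, against 1.87, 1.84 and 1.78 in DMSO samples. That difference shifted by -1.20 (exact two-sided permutation p = 0.1, the smallest possible), which is likewise a description.

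Fbxo32, also called atrogin-1, is the substrate-binding subunit of a ubiquitin ligase that in muscle marks proteins for breakdown, and it showed the largest change of the 9. It had 7.32, 7.39 and 7.86 in Torin1 samples, against 5.63, 4.56 and 5.05 in DMSO samples. DMSO samples spread more widely than Torin1 samples, yet the lowest Torin1 value was above the highest DMSO value by more than the range of the DMSO samples. Intensities were 159, 167 and 231 in Torin1 and 48.5, 22.5 and 32.0 in DMSO samples. The change was 2.44 ± 0.27 (SE; 95% interval 1.80 to 3.09; limma, adjusted p = 0.00201), or 5.44-fold higher, and it ranked 85th of all 22180 genes by absolute change. Without any 1 array it stayed called, at 2.18 to 2.72.

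**Figure D2:**
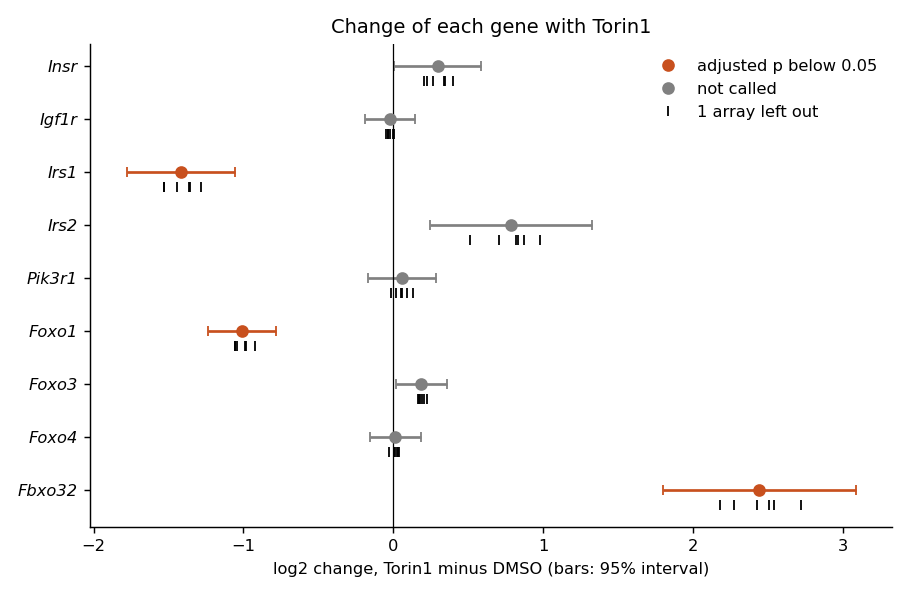
Log2 change of each gene, Torin1 minus DMSO, with its 95% interval from limma; coloured points passed an adjusted p of 0.05 and ticks below each point give the change with 1 array left out. Irs1 (-1.42) and Foxo1 (-1.01) have intervals below 0 and Fbxo32 (2.44) one above it; the intervals of Irs2, Insr and Foxo3, which were not called, also lie above 0, while those of Igf1r, Pik3r1 and Foxo4 hold 0.

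The falls of Irs1 and Foxo1 were accompanied by the lower signal of 11 of 15 cumulus and granulosa markers given above. The median change of all 15 was -1.22, and the others were not called. The part of cell composition in the falls, or in smaller changes such as that of Foxo3, was not tested. Without Torin1 sample 3, which stood apart, Irs1 changed by -1.37, Foxo1 by -1.06 and Fbxo32 by 2.28, each called.

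Irs1 and Foxo1 have a second probe set each, and these were less clear. The dimmer Irs1 probe set had 3.16, 2.93 and 3.11 in Torin1 and 3.23, 3.33 and 3.27 in DMSO samples, below the median gene. Its change was -0.21 ± 0.09 (SE; limma over all probe sets, adjusted p = 0.274), and a mean of both probe sets brought the change of Irs1 to -0.81 (adjusted p = 0.00179). The dimmer Foxo1 probe set had 4.62, 4.77 and 5.81 in Torin1 and 6.44, 6.14 and 5.72 in DMSO samples. Torin1 sample 3 was above DMSO sample 3 there, and the change of -1.03 ± 0.35 was not called (adjusted p = 0.176 in limma over all probe sets). A probe set named for Irs2 together with a further transcript was dim, with 3.42 ± 0.03 in Torin1 and 3.43 ± 0.07 in DMSO samples (SD, n = 3 each), and was left out of the tests.

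**Figure D3:**
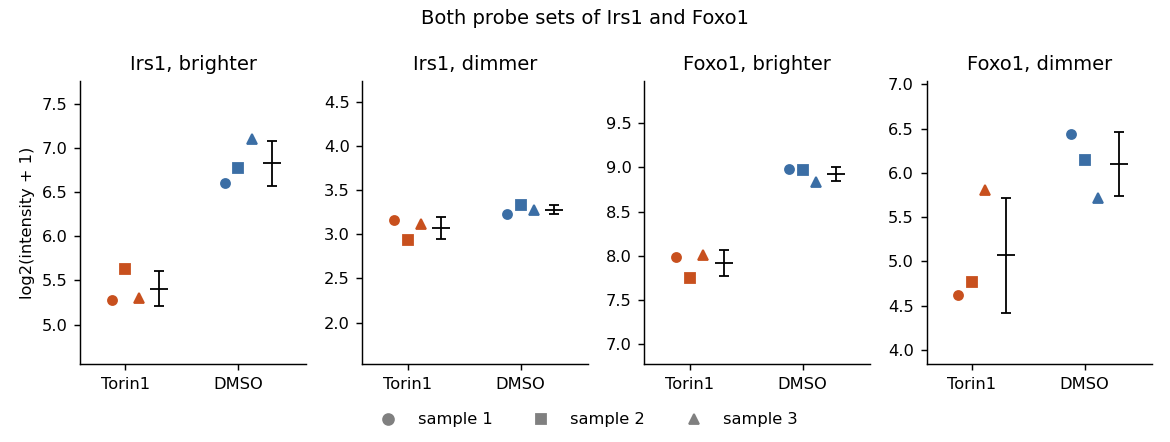
Both probe sets of Irs1 and of Foxo1 as log2(intensity + 1) on each array, Torin1 left of DMSO, with mean and SD (n = 3). The brighter set of each gene, which was used, separates the groups; the dimmer Irs1 set differs by -0.21 and the dimmer Foxo1 set overlaps between groups.

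**Figure D4:**
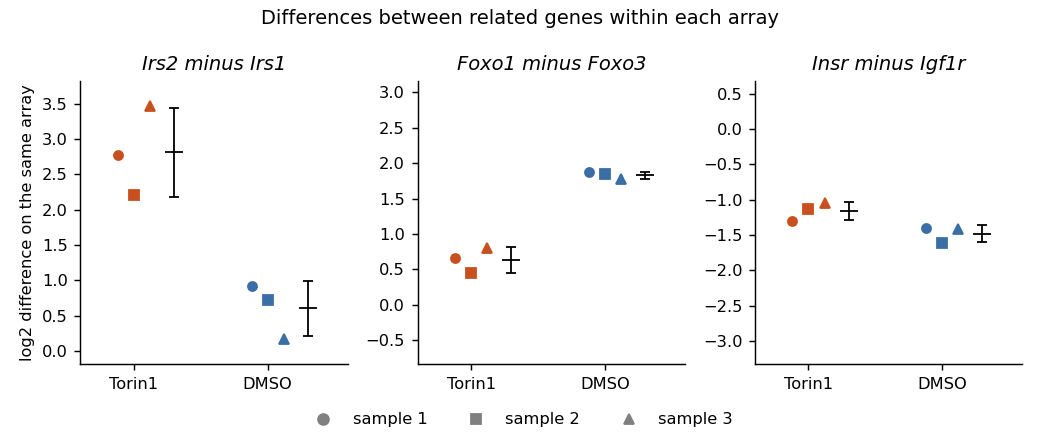
Log2 difference between related genes on the same array, Torin1 left of DMSO, with mean and SD (n = 3). Irs2 minus Irs1 shifted by 2.21, Foxo1 minus Foxo3 by -1.20 and Insr minus Igf1r by 0.32.

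For each of the called genes, the genes nearest in pattern were found by the root mean square distance of log2 values over the 6 arrays. Each gene's mean was first taken off. The candidates were 10430 genes above the median level, with predicted, small RNA, olfactory and vomeronasal genes left out. Nearest to Irs1 were Dzip1 (distance 0.0960 log2 units), Dcxr, a carbonyl reductase (0.120), and Duox2, an oxidase that makes hydrogen peroxide (0.125). Dzip1 had 4.48, 4.86 and 4.29 in Torin1 and 5.76, 5.76 and 6.17 in DMSO samples, so that it fell by 1.35, close to the fall of Irs1. Nearest to Foxo1 were Ctc1, a telomere maintenance gene (0.0371), Bok, a BCL2 family member (0.0806), and Cd82, a tetraspanin (0.0820). Ctc1 fell by 1.04, with 6.43, 6.30 and 6.47 in Torin1 and 7.51, 7.46 and 7.35 in DMSO samples. Nearest to Fbxo32 were D16Ertd472e (0.0845), Rnf125, a ubiquitin ligase (0.238), and Maml2, a coactivator of Notch signalling (0.241). D16Ertd472e shared with Fbxo32 a low DMSO sample 2, with 8.06, 8.13 and 8.46 in Torin1 and 6.19, 5.35 and 5.79 in DMSO samples. Likeness over 6 arrays that form 2 groups is largely the group difference, and it is given as a description.

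Other genes of the pathway were taken from lists of general knowledge, apart from the 9 above. Brighter than the median gene were 20 of 22 relay genes, 36 of 43 adaptors and brakes, 25 of 25 FOXO regulators and 43 of 57 FOXO targets. With genes below the median gene left out, 2740 genes were called, more than the 2678 called among all 22180. The called share among brighter genes is therefore well above 12.1%. In that setting 4 of the 20 relay genes and 10 of the 36 adaptors and brakes were called. For FOXO regulators it was 4 of the 25, and for FOXO targets 20 of the 43. The share of all genes is therefore a low mark to set these lists against. Of 22 measured genes that relay the signal through phosphoinositide 3-kinase, AKT and their partners, 1 rose, 4 fell and 17 were not called (22.7%, against 12.1% of all genes), with a median change of 0.07. Pik3r2, a second regulatory subunit of the kinase, fell by 0.57 ± 0.09 (SE; limma, adjusted p = 0.00864), with 6.61, 6.85 and 6.65 in Torin1 and 7.20, 7.27 and 7.35 in DMSO samples. It was called without any 1 array. Sgk1, a kinase related to AKT that also phosphorylates FOXO factors, rose by 1.29 ± 0.32 (adjusted p = 0.0441 in limma), with 6.18, 6.14 and 7.40 in Torin1 and 5.27, 5.16 and 5.42 in DMSO samples. Torin1 sample 3 was high, and the call was lost without DMSO sample 1, 2 or 3 or Torin1 sample 1 (adjusted p of 0.126, 0.133, 0.109 and 0.0566). Its relative Sgk3 fell by 0.80 ± 0.15 and was not called without DMSO sample 1 or 3 (adjusted p of 0.0540 and 0.0537). Pik3cg, a catalytic subunit best known from leukocytes, fell by 0.58 ± 0.12, was dim at means of 3.31 in Torin1 and 3.90 in DMSO samples, and was not called without Torin1 sample 1 or 2 (adjusted p of 0.0758 and 0.0513). The called genes of this list numbered 2 without DMSO sample 1 or 3 and 3 without DMSO sample 2 or Torin1 sample 1.

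Among 43 measured adaptors and brakes of the receptors, 4 rose, 5 fell and 34 were not called (20.9%, against 12.1% of all genes; median change 0.06). Trib1, a pseudokinase of the Tribbles family, rose by 3.27 ± 0.20 (SE; limma, adjusted p = 0.000219), with 7.19, 7.15 and 7.93 in Torin1 and 4.21, 4.15 and 4.10 in DMSO samples. Its DMSO values were as dim as the median gene, which leaves the fold of this rise uncertain. Grb14, an adaptor that inhibits the insulin receptor kinase, fell by 2.40 ± 0.31 (adjusted p = 0.00351 in limma), with 4.36, 4.18 and 5.42 in Torin1 and 7.24, 6.97 and 6.96 in DMSO samples. Cblb, a ubiquitin ligase known to act on IRS1 in muscle, rose by 0.91 ± 0.10 (adjusted p = 0.00171 in limma), to 7.81, 7.89 and 8.12 in Torin1 samples, against 6.96, 7.04 and 7.08 in DMSO samples. Each of these 3 was called without any 1 array. Socs2, which curbs cytokine and growth hormone signalling, fell by 1.28 ± 0.27 and was not called without DMSO sample 1 or 3 or Torin1 sample 1 or 2 (adjusted p of 0.0907, 0.0882, 0.0703 and 0.0805). The called falls of this list numbered 2 without DMSO sample 1 or 3 and 3 without Torin1 sample 1 or 2, against 5 in the full set.

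Of 25 measured regulators of FOXO proteins, 3 rose, 1 fell and 21 were not called (16.0%, close to the 12.1% of all genes; median change 0.03). Bcl6, a transcriptional repressor that is also a FOXO target, rose by 2.01 ± 0.17 (SE; limma, adjusted p = 0.00068), with 7.01, 6.86 and 7.42 in Torin1 and 5.20, 4.82 and 5.22 in DMSO samples. Sirt3, a mitochondrial deacetylase, fell by 0.88 ± 0.10 (adjusted p = 0.00262 in limma). Both were called without any 1 array. Mdm2, a ubiquitin ligase, rose by 0.38 ± 0.10 but was not called without any 1 of the 6 arrays (adjusted p up to 0.132), and Ywhaz, a 14-3-3 protein gene, rose by 0.35 ± 0.08 with a call that did not survive the loss of DMSO sample 1 or 2 or Torin1 sample 1 or 2 (adjusted p up to 0.0985). The called genes numbered 2, with 1 higher and 1 lower, without Torin1 sample 1 or 2 or DMSO sample 1 or 2.

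FOXO target genes went both ways. Of 57 measured, 11 rose, 9 fell and 37 were not called (35.1%, against 12.1% of all genes), and the median change was -0.01. Klf4, a transcription factor, rose by 2.76 ± 0.24 (SE; limma, adjusted p = 0.00069), with 7.37, 7.58 and 8.24 in Torin1 and 4.77, 4.87 and 5.27 in DMSO samples. Cat (catalase, which breaks down hydrogen peroxide) fell by 1.69 ± 0.27 (adjusted p = 0.00835 in limma), with 6.68, 6.84 and 5.73 in Torin1 and 8.13, 8.12 and 8.06 in DMSO samples. Klf4, Cat and Bcl6 were called without any 1 array. Glul, the glutamine synthetase gene, rose by 2.26 ± 0.49, with 8.16, 7.74 and 9.74 in Torin1 and 6.64, 6.28 and 5.94 in DMSO samples, and was not called without DMSO sample 1, 2 or 3 or Torin1 sample 1 (adjusted p of 0.0595, 0.0846, 0.0992 and 0.0541). The called genes numbered 13 without Torin1 sample 1, DMSO sample 1 or DMSO sample 2, and 12 without DMSO sample 3. By direction, 7 rose without DMSO sample 1, 2 or 3, and 4 fell without Torin1 sample 1, 5 without DMSO sample 3 and 6 without DMSO sample 1 or 2 or Torin1 sample 2. Targets known to be raised by FOXO factors, such as Klf4, Cat and Fbxo32, stood on both sides.

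For partners and substrates of the Fbxo32 ligase, a list that also held other ligase genes such as Trim63, limma's fit called 0 of 10. That count is too small to set apart from the 12.1% of all genes, with 2 at an unadjusted p below 0.05 and a median change of 0.07. Cul1, the scaffold of the ligase, had 8.26, 8.47 and 8.18 in Torin1 and 7.91, 8.02 and 7.92 in DMSO samples, a change of 0.36 ± 0.10 (SE; limma, adjusted p = 0.0557). Ppp3ca, a catalytic subunit of calcineurin, which the ligase acts on in heart, changed by 0.50 ± 0.14 (adjusted p = 0.0637 in limma). Without Torin1 sample 3, 3 of the 10 were called, Cul1 (adjusted p = 0.0328) and Ppp3ca (adjusted p = 0.0304) among them. The number of all genes called also changed with the array left out, as given below, so this count is a description.

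**Figure D5:**
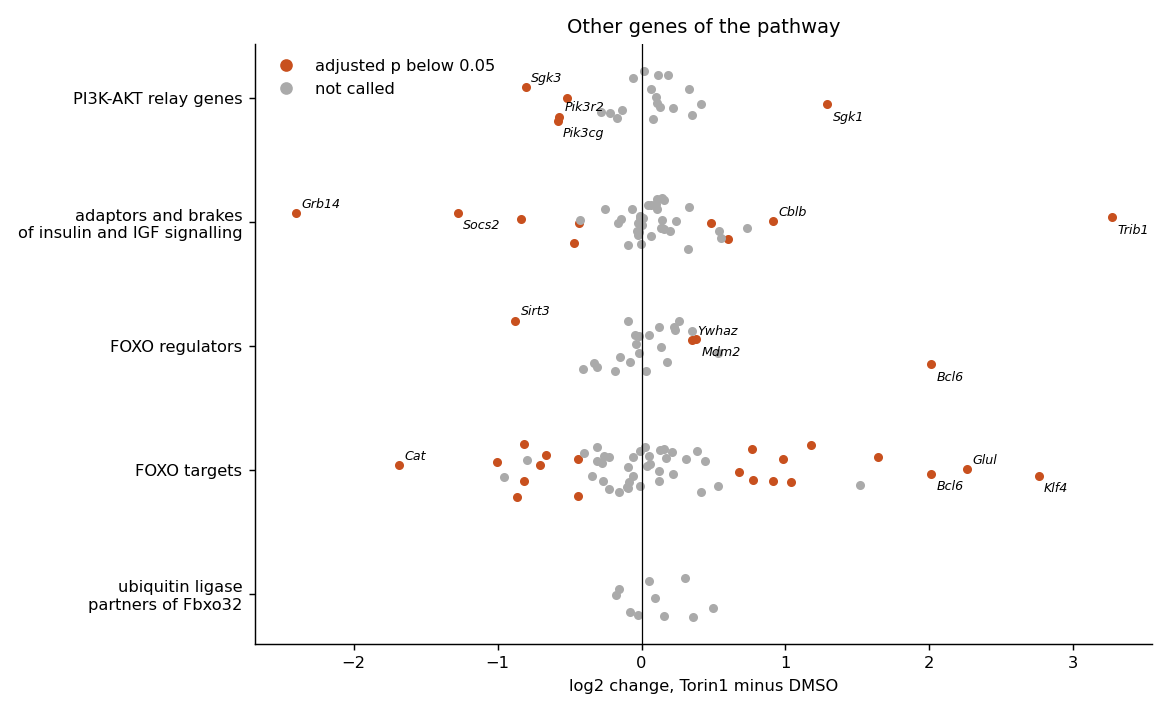
Log2 change, Torin1 minus DMSO, of every measured gene of the lists, 1 point a gene, with vertical scatter only for legibility; coloured points passed an adjusted p of 0.05 and up to 4 called genes a list are named. Called genes lie on both sides of 0 in the upper rows, from Grb14 at -2.40 to Trib1 at 3.27, and none is called in the bottom row.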

How the data were processed

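RNA of 3 Torin1 and 3 DMSO samples was amplified as cDNA, labelled with biotin and hybridised, 1 array a sample, per the labels' protocols. The authors' deposited intensities, 1 for each of 41345 probe sets and array, were produced by RMA, and the submitters' processing notes also name Affymetrix Expression Console 1.1 and GCOS; settings and probe set build were not stated. RMA gives all arrays a common distribution, which makes each change a relative one. The values are on a linear scale (2.25 to 3268), so log2(intensity + 1) was taken here, which understates the change of dim genes. No background signal per probe was used, and precision is limited by the number of arrays.

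Of the probe sets, 23521 named 1 gene in the platform's table, 1814 named several and were left out, and 16010 were unnamed here. The brightest probe set by mean over the 6 arrays stood for each of 22180 genes. limma 3.58.1 in R 4.3.3 (lmFit, eBayes, two-sided, no covariate, no filter) was run over all genes with Benjamini-Hochberg adjustment. The code was also run on simulated data with genes drawn independently. That run's outcome is not given here and lends the calls no support. The genes and lists were chosen with earlier results of these data known. Named genes are all 9, up to 4 called genes of each list with the largest change (or 2 with the smallest p in a list without calls), and the 3 genes nearest in pattern to each called gene. Acta2, Star, Cd68, Cdh5, Cyp17a1, Ptprc, Amhr2, Gja1, Wt1, Gata4, Nr5a1 and Fst were added as markers. Alternatives covered the pseudocount, dim genes, probe sets, scaling, variance prior, shared short name, replicate block and each array left out.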

Additional observations from a re-analysis of the deposited data

How the results depend on the processing

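Fbxo32, Irs1 and Foxo1 kept their direction and call under every alternative run. Without any 1 array, Irs2 lay at 0.51 to 0.98, Igf1r at -0.047 to 0.0041, Pik3r1 at -0.015 to 0.13 and Foxo4 at -0.028 to 0.041. Irs2 was also called with genes below the median gene left out (0.79, adjusted p = 0.0425) and with Torin1 samples 2 and 3 averaged (0.75), and Foxo3 with a pseudocount of 16 (0.17, adjusted p = 0.0457), all in limma. Leaving out 1 array at a time gave 2 to 6 called relay genes, 6 to 11 adaptors and brakes (2 to 5 of them lower), 2 to 5 FOXO regulators, 12 to 21 FOXO targets and 0 to 3 partners of the Fbxo32 ligase. Partners numbered 2 with dim genes left out, with a trended robust prior and with Torin1 samples 2 and 3 averaged. With p adjusted over all probe sets, 2 FOXO regulators and 12 FOXO targets were called. Over all genes, 2678 were called in the full set and 1518 to 3083 without 1 array. The list counts without 1 array therefore stand beside a total that also changed. With the replicate block, 1565 genes, 3 of the 9 genes, 2 FOXO regulators, 6 adaptors and brakes (2 lower) and 14 FOXO targets (5 lower) were called. Same-numbered samples did not deviate together (correlations of -0.207, -0.299 and -0.148), while samples of unlike number gave -0.115 to 0.310. With 3 arrays a group, such correlations cannot decide whether any samples were paired. The causes of these shifts were not tested.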

Other observations

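Further family members, named for kinship with the 9 genes and not by the rule for named genes, were looked up after the values were seen. Foxo6, the remaining FOXO gene, had 5.04 ± 0.16 in Torin1 and 4.69 ± 0.23 in DMSO samples (SD, n = 3 each; change 0.35, limma adjusted p = 0.175). Irs3, Irs4 and the insulin receptor-related gene Insrr were dim in both groups, with means of 3.27, 3.30 and 2.83 in Torin1 and 3.28, 3.30 and 2.85 in DMSO samples, below the median gene at 4.17. Akt1 and Akt2, the kinases that act on FOXO factors, averaged 6.43 and 8.18 in Torin1 and 6.60 and 8.12 in DMSO samples, and neither was called (adjusted p = 0.496 and 0.791 in limma). Trim63, which with Fbxo32 forms the classic pair of muscle atrophy ligases, had 3.96 ± 0.17 in Torin1 and 3.81 ± 0.05 in DMSO samples (SD, n = 3 each) and was not called (limma adjusted p = 0.445). Grb10, an adaptor that inhibits insulin signalling, had 5.88, 5.60 and 7.32 in Torin1 samples 1, 2 and 3, against 5.73, 5.61 and 5.84 in DMSO samples, so its higher mean came with Torin1 sample 3 (limma adjusted p = 0.537).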
